A study of Mus musculus with 102 samples.

Results

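A small set of CpGs in mouse embryonic stem cells was almost fully methylated both with and without TET enzymes. In the capture bisulfite table, 2851 of 2177608 CpGs (0.131%) had a methylation level of at least 90% in wild-type cells and also in untransduced TET triple knockout (TTKO) cells. Both of these levels chose the CpGs, so they are given below as a description and were not tested. The methylation level is the percentage of bisulfite reads that still show a C at the CpG. Of 39063 CpGs at 90% or more in TTKO cells, 7.30% were also at 90% or more in wild type, whereas of 3693 CpGs at 90% or more in wild type, 77.2% were also at 90% or more in TTKO.

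The wild-type line is a C57BL6/J embryonic stem cell line that carries loxP sites around the catalytic exons of Dnmt3a and Dnmt3b, and the TTKO line is 1 clone made from it by CRISPR, with frameshift mutations in Tet1, Tet2 and Tet3 that leave no catalytic activity. Cre protein was added to the cells to remove the loxP-flanked exons, and mock cells received buffer without Cre. By the study's genotyping the excision was incomplete, so a minority of functional Dnmt3 alleles remained in the Cre samples, and their part in the levels kept at day 29 was not tested. SureSelect capture libraries were made from untransduced wild-type cells and from TTKO cells before Cre (day 0) and at 6 times after it, from day 4 to day 29, with 3 replicates each. The authors joined the replicates into 1 column per time point, so spreads over capture CpGs below are spreads between CpGs, not between replicates. Amplicon bisulfite sequencing followed Cre and mock cells of both lines over the same days, with 3 replicates per group. The study's methods call these biological replicates of the time course. All come from the same line or clone, so p-values measure the spread between repeats of 1 line.

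DNMT3A and DNMT3B write methylation onto unmethylated CpGs, DNMT1 copies the existing pattern onto the new strand after replication, and TET enzymes oxidise methylcytosine on the way to its removal. In cells without TET that have lost DNMT3A and DNMT3B, a CpG depends on this copying to keep its methylation, apart from what any remaining DNMT3 adds. Repeated elements such as endogenous retroviruses, and most DNA between genes, are known to be heavily methylated in mouse cells, whereas CpG-rich gene starts are mostly unmethylated.

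Some members were packed closely together, although 57.5% stood alone by the grouping described below. Several of the packed stretches resembled each other in sequence. Long runs of 9 or 11 neighbouring members are shown first, because they carry many members in few bases. All sequences are the plus strand of the mm9 reference, capitals mark the member CpGs, and 10 bases are included on each side.

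chr13:81203623-81203690 (intron of 9330111N05Rik): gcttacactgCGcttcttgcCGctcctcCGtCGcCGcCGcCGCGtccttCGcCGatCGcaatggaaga
chr2:64706740-64706809 (intergenic): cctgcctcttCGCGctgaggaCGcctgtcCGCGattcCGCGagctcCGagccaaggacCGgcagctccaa
chr6:7733620-7733689 (intergenic): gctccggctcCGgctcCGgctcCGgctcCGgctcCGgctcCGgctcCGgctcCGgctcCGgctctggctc
chr8:85048102-85048161 (intergenic): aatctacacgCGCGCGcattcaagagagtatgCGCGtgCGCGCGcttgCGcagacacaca

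The next sequences are runs of 5 or more members chosen for high day 29 levels, followed by those with the lowest. The high group held no long CA or TG repeat, and most of the low group consisted of CG units inside CA or TG repeats. These are the extremes, and such repeats were not found at low levels alone. With 32 CG, CA or TG units in a row, chr10:95663519-95663567 was at 92.1% on day 29. With 31 units in a row, the stretch in Cacna1d was at 81.9%.

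High, chr5:133936620-133936651 (intergenic): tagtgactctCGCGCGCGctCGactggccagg
High, chrX:47726894-47726940 (noncoding exon of Gm14612): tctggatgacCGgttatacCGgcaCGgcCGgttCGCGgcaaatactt
High, chr9:69704801-69704861 (intergenic): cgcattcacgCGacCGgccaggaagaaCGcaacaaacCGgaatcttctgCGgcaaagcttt
High, chr19:17000183-17000234 (intergenic): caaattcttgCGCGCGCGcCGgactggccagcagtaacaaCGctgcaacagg
Low, chr14:30863055-30863092 (intron of Cacna1d): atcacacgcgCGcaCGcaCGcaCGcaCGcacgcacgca
Low, chr16:57696671-57696727 (intron of Col8a1): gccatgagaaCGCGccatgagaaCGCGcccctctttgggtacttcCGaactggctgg
Low, chr14:49847024-49847053 (intron of 1700011H14Rik): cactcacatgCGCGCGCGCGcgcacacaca
Low, chr14:120220253-120220284 (intron of Hs6st3): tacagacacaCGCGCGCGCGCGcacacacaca
Low, chr17:48961919-48961950 (intergenic): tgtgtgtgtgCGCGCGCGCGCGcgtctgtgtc

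The members stayed highly methylated for the whole time course after Cre. Their mean level was 93.6% (SD 2.07 over CpGs) at day 0. After Cre it was 92.9% on day 4, 92.4% on day 8, 91.01% on day 10, 90.4% on day 13, 88.6% on day 17 and 87.2% (SD 7.41) on day 29. The mean in wild type was 92.2% (SD 1.77). The spread between members widened as their mean came down, and at day 29 the middle 50% of them lay between 83.7% and 92.4%, with extremes of 50% and 99%. The CpGs at 90% or more in TTKO only (n = 36212), which started at 91.9%, had a mean of 74.2% (SD 10.9) at day 29 and of 73.1% in wild type. The CpGs of 80 to 90% in both lines (n = 40145) went from a mean of 86.2% to 71.7%, and those at 90% or more in wild type only (n = 842) from 87.3% to 80.2%.

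**Figure D1:**
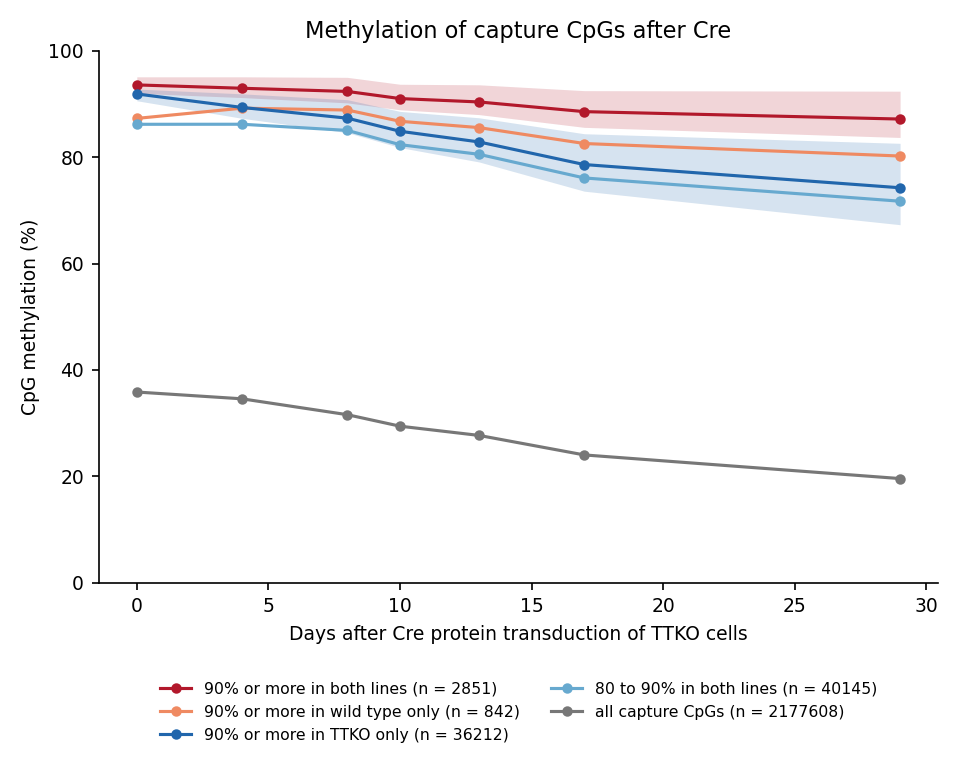
Mean methylation level (%, vertical axis) of capture CpGs against days after Cre in TTKO cells (horizontal axis), for 5 sets of CpGs. Points are means over CpGs of the pooled columns and the bands, drawn for the members (red) and the CpGs at 90% or more in TTKO only (dark blue), hold the middle 50% of CpGs, with the members ending at a mean of 87.2% and the TTKO-only CpGs at 74.2%.

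Relative to where each set stood at day 4, the members kept 93.8% of their methylation at day 29 and the TTKO-only CpGs kept 83.1%. Day 4 is used as the start because day 0 took part in the choice of members. The difference between day 29 and day 4 averaged -5.79 percentage points over members (median -4.3, 5th to 95th percentile -18.7 to 2.2) and -15.1 points over TTKO-only CpGs. The mean unmethylated share at day 29 was 1.82 times that of day 4 for members and 2.42 times for TTKO-only CpGs. It was 1.83 times for CpGs at 90% or more in wild type only, close to the members, 2.05 times for CpGs of 80 to 90% in both lines and 1.23 times over all. Between days 8 and 29 the mean of the members declined by 0.275% of its value per day, against 0.487% for CpGs at 90% or more in wild type only, 0.773% for TTKO-only CpGs, 0.811% for CpGs of 80 to 90% in both lines and 2.28% over all capture CpGs.

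At single CpGs, day 29 was lower than day 4 at 880 of the 2851 members (30.9%; Fisher's exact test on pooled reads, two-sided, Benjamini-Hochberg adjusted over all capture CpGs), against a background of 57.1% of all capture CpGs. Only 3 members were higher at day 29, and the background of higher calls was 0.112%. The share of lower calls was 74.6% among TTKO-only CpGs, 74.4% among CpGs of 80 to 90% in both lines and 38.2% among CpGs at 90% or more in wild type only. The test compares pooled libraries, not conditions, and takes no account of the spread between replicates. Of the 880 calls, 529 (18.6% of members) were lower by at least 10 points, against a background of 50.1%. With an allowance for variation beyond counting error (over-dispersion of 0.0055) in place of Fisher's test, 426 members (14.9%) were called lower against 50.2% of all CpGs. The study fitted that value to its amplicon replicates, and it found a plain binomial model adequate for the capture data. The members had a median of 174 reads at day 29 and all capture CpGs 242, and the part of this depth in the share of calls was not tested.

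By day 29 the members were spread over a broad range. Divided into steps of 10 points, 1221 (42.8%) were still at 90% or more, 1220 (42.8%) lay between 80% and 90%, 318 between 70% and 80%, 70 between 60% and 70%, and 22 (0.772%) under 60%. A level of 90% or more at day 29 was found for 12% of the 842 CpGs at 90% or more in wild type only, 4.28% of TTKO-only CpGs and 0.964% of CpGs of 80 to 90% in both lines. At day 4 such a level was already less common among TTKO-only CpGs, at 47.2%, than among members, at 84.6%. In all 8 columns, wild type and every TTKO time point, 844 members (29.6%) were at 90% or more.

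**Figure D2:**
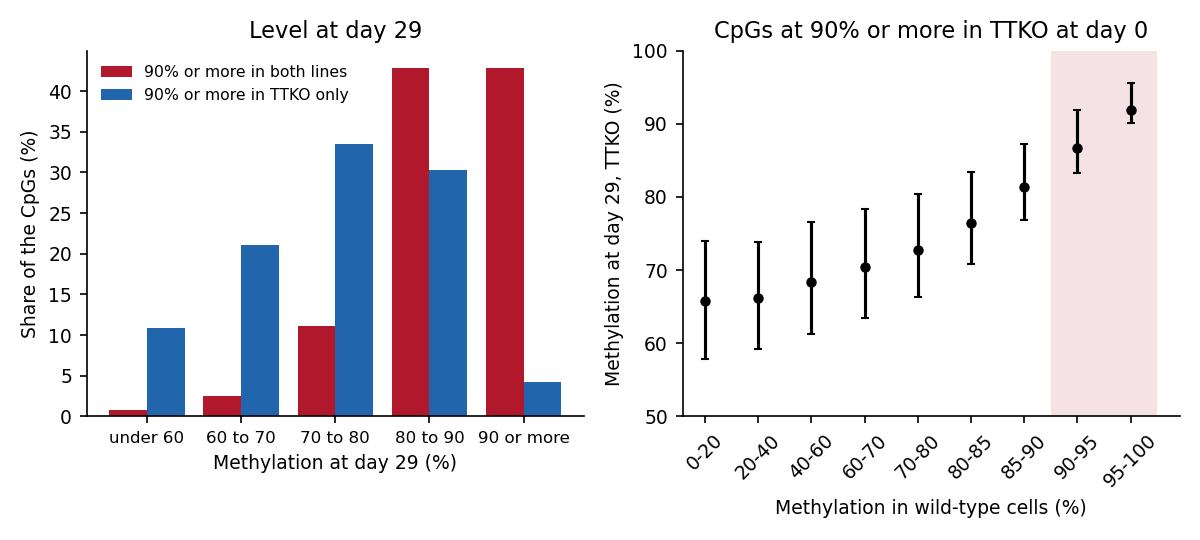
Left, share of CpGs (%) in each range of day 29 methylation (%) for members (red) and CpGs at 90% or more in TTKO only (blue), with 42.8% and 4.28% in the top range. Right, mean day 29 level in TTKO cells (%, points, with bars for the middle 50% of CpGs) against the range of the wild-type level (%) for all CpGs at 90% or more in TTKO, members shaded, from 65.8% to 91.8%.

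The level a CpG had in wild type, with TET present, ran in parallel with its level at day 29 in TTKO cells, where TET was absent. Among CpGs at 90% or more in TTKO, the mean at day 29 was 65.8% for the 348 CpGs with a wild-type level under 20%, 68.4% for those of 40 to 60%, 72.7% for 70 to 80%, 76.5% for 80 to 85% and 81.3% for 85 to 90%. It was 86.7% for the 2595 members with a wild-type level of 90 to 95% and 91.8% for the 256 at 95% or more. These sets already differed at day 4, from a mean of 86.5% for wild-type levels under 20% to 94.9% for those at 95% or more. The order held along the whole scale, and the threshold of 90% did not mark a step in it. Members just inside the threshold, with the lower of their levels in both lines at 90 to 91% (n = 1060), had a mean of 84.8% at day 29, and CpGs just outside it at 89 to 90% (n = 1582) had 83.6%. Within the band of 92 to 94% at day 0, members were at 92.6% on day 4 and 86.5% on day 29, and TTKO-only CpGs at 90.1% and 75.7%. Within 96 to 100% the members were at 94.98% and 90.95% and the TTKO-only CpGs at 92.1% and 79.4%. Bands by day 0 use a level that chose the members, and the sets already differed in mean at day 4, so they were not matched at that start.

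Members lay away from gene starts. A median distance of 46571 bases separated them from the nearest start of a protein-coding gene, compared with 28169 bases for TTKO-only CpGs and 5422 for all capture CpGs. Only 76 members (2.67%) were within 1 kb of a start, where 32.7% of the capture CpGs are, and 48.0% of members were 50 kb or more away against 17.7% of all and 34.6% of TTKO-only CpGs. CpGs at 90% or more in wild type only and those of 80 to 90% in both lines lay much like the members, with 46.8% and 42.3% at 50 kb or more and 3.33% and 3.49% within 1 kb of a start. Intergenic DNA held 50.3% of members, against 35.0% of all capture CpGs and 36.3% of TTKO-only CpGs, introns 34.0% and coding exons 9.96%. The mean day 29 level was 88.5% for intergenic members, 85.4% for intronic ones, 85.9% in coding exons and 89.2% in the 130 members of noncoding exons. On the autosomes and the X chromosome, members made up between 0.0838% of the capture CpGs on chromosome 11 and 0.194% on chromosome 14, with none among the 152 capture CpGs on the Y chromosome, and their mean day 29 level ran from 83.9% on chromosome 11 to 89.4% on the X chromosome.

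CpGs directly adjoining another CpG were common among members. A CpG within an uninterrupted run of at least 2 CG units was found for 842 members (29.5%), against 8.95% of all capture CpGs and 8.46% of TTKO-only CpGs, and runs of at least 5 for 4.35%, 0.124% and 0.492%. CpGs at 90% or more in wild type only also had such runs often, with 20.4% in runs of at least 2 and 4.75% in runs of at least 5. The bases GCGC, a CG with a G before and a C after it, were present at 30.7% of members, 8.32% of all, 10.0% of TTKO-only and 27.1% of wild-type-only CpGs. Of the CpGs at 90% or more in TTKO, the share that also reached 90% in wild type was 5.71% for lone CGs, 15.95% for runs of 2, 44.0% for 3, 37.0% for 4, 39.2% for 5 to 6 and 43.4% for 7 or more. The mean day 29 level of members was 86.6% for lone CGs, 88.6% for runs of 2, 90.04% for 3, 90.2% for 4, 86.5% for 5 to 6 and 82.8% for 7 or more. It also differed with CpG density, from 83.6% for members without another CpG within 100 bases to 90.7% for those in stretches of 16 or more CpGs. Members stood above TTKO-only CpGs at day 29 in each of these run classes, with 86.6% against 74.1% for lone CGs, 88.6% against 76.2% for runs of 2 and 82.8% against 72.9% for runs of 7 or more.

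**Figure D3:**
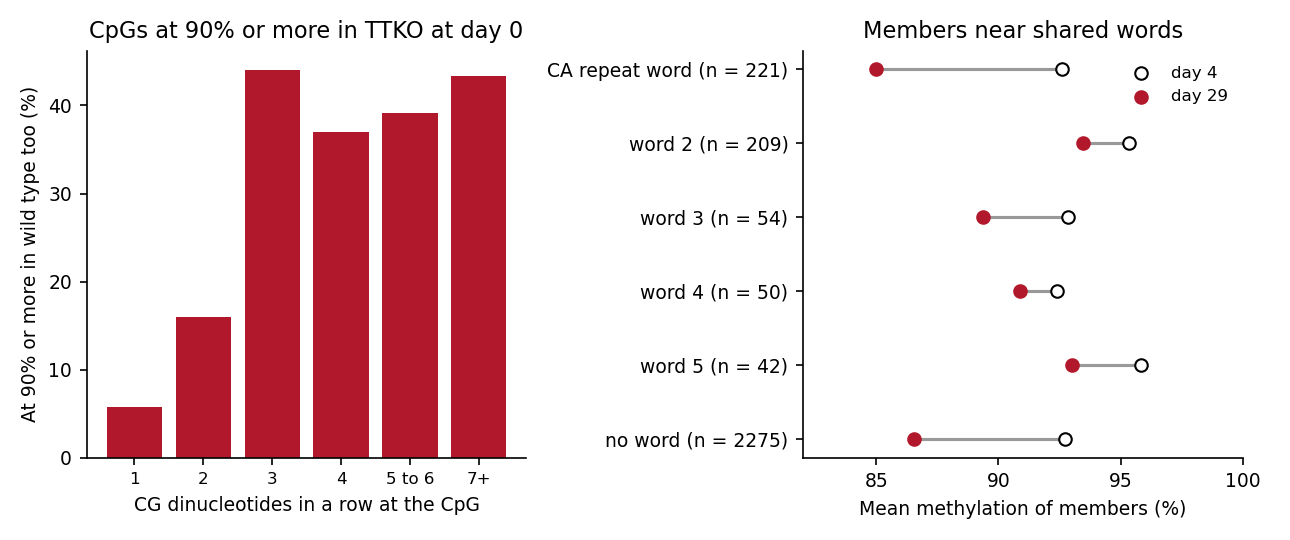
Left, of CpGs at 90% or more in TTKO, the share (%) also at 90% or more in wild type against the number of CG units in a row, at 5.71% for lone CGs and 44.0% for runs of 3. Right, mean methylation of members (%) at day 4 (open) and day 29 (filled) near each of the 5 shared words, in the order given in the text, and near none, with the CA word at 85.01% and the second word at 93.5% on day 29.

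The 102 bases centred on each member were searched for shared words of 12 bases, on either strand, and the 5 words taken lay near 20.2% of members. They were picked after the methylation values were known, as words shared by many members, and are a description with no test. The members near a word were not all at separate places. The 221 members near the first word lay at 91 places more than 1000 bases apart. For the words near 54, 50 and 42 members there were 26, 25 and 12 such places. No repeat annotation was used here. The first word, CACACACACACA, which overlaps itself in longer CA repeats, was near 221 members (7.75%) against 1.29% of TTKO-only and 0.614% of all capture CpGs. These members had a mean of 92.6% at day 4 and 85.01% (SD 8.38) at day 29, and 38.5% of them were called lower at day 29 than at day 4.

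The members near the second word, AACAGGATCCTT, had the highest mean at day 29 of those near any of the 5 words. The word was near 209 members (7.33%) at 84 places more than 1000 bases apart, against 0.638% of TTKO-only and 0.0322% of all capture CpGs, and mm9 holds 3840 copies of it. Their mean level was 95.3% at day 4, 93.7% at day 17 and 93.5% (SD 4.10, range 62.2 to 99%) at day 29, when 88.5% of them were at 90% or more. Day 29 was called lower than day 4 at 20 of them (9.57%), against 57.1% of all capture CpGs. Of TTKO-only CpGs near the word 39.4% were called lower, against 74.6% of their set, so a smaller share near the word was not particular to members. CpGs at lower levels also lay near the word, and over all 702 capture CpGs near it the means were 76.9% in wild type, 87.3% in TTKO at day 0 and 78.8% at day 29, and the 231 TTKO-only CpGs near it had a mean of 86.5% at day 29. Places with high coverage are given here with the word in capitals and the member CpG at the centre.

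chr13:114058701-114058802: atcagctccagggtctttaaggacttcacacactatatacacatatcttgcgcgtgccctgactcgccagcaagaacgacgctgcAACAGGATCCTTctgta
chr13:6806863-6806964: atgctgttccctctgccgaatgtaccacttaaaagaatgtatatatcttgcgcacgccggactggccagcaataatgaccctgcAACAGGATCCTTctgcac
chr11:121257497-121257598: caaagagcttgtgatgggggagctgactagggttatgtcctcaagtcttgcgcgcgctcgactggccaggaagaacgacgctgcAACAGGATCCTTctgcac
chr10:25581300-25581401: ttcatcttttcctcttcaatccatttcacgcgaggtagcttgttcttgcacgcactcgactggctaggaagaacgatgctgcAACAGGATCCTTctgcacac

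The bases to the right of the centre were much alike at these places, starting from a shared tcttg just left of it. Those further to the left were not. The member at chr13:114058751 was at 95.3% in both lines at the start and at 96.2% of 788 reads at day 29. The member at chr13:6806913 went from 95.9% at day 0 to 92.4% of 668 reads, the one at chr11:121257547 from 96.6% to 96.8% of 528 reads, and the one at chr10:25581350 from 94.5% to 94% of 501 reads.

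Rarer words were also shared. GGTTTTCTGAAA was near 50 members, 94% of them intergenic, with a mean of 90.9% at day 29. Of these, 2 are given here with the word on the other strand in capitals, and this pair was alike over nearly the whole window.

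chr5:105256047-105256148: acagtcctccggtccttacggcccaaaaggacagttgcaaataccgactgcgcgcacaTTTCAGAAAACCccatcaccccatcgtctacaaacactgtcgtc
chr11:28045021-28045122: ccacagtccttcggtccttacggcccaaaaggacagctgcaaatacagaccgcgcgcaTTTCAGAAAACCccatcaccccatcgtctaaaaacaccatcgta

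AAGATGGCGCTG was near 54 members with a mean of 89.4% at day 29, and CGCAGAAGATTC was near 42 members with a mean of 93.0%. Of the CpGs at 90% or more in TTKO near CGCAGAAGATTC, 77.8% were also at 90% or more in wild type. The 2275 members near none of the 5 words had a mean of 86.5% at day 29 and 33.2% of them were called lower than at day 4. Among members in runs of 3 or 4 CG units, the means at day 29 were 94.6% with the second word (n = 84), 85.4% with the CA word (n = 57) and 88.8% with neither (n = 89). The complete 102 bases of 20 members also occurred at another measured CpG, where reads could be placed at either copy.

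Members clustered along the DNA to a limited degree. Joining neighbouring members at most 200 bases apart with no measured non-member between them gave 2074 groups, of which 1639 (57.5% of members) were single CpGs and 2 had at least 10 members. Because 2 are few, the clusters of at least 5 members are described as well, of which there were 38 with 236 members, 10 to 92 bases long. When the next measured CpG was within 20 bases of a member it was itself a member in 733 of 1786 cases (41.0%). TTKO-only CpGs were also often next to their own kind, in 6716 of 18506 cases, so this closeness was not particular to members. Across 733 such pairs of members the day 29 levels had a Pearson correlation of 0.725, and across 37 pairs 21 to 50 bases apart 0.479. It was 0.630 and 0.482 for pairs of TTKO-only CpGs and 0.921 and 0.784 for all neighbouring capture CpGs, whose levels span a wider range. Neighbours at these distances are often covered by the same reads.

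Larger clusters had higher day 29 levels. The mean was 85.3% for single members, 88.2% for pairs, 90.4% for clusters of 3 to 4, 91.3% for 5 to 9 and 94.4% in the 2 clusters of 11 members, while at day 4 the same classes were at 92.3%, 93.3%, 94.1%, 94.4% and 94.9%. Cluster size comes from the levels that chose the members, so this order is a description with no test. Of the 38 clusters of at least 5 members, 23 overlapped no gene. Their mean levels at day 29 ran from 81.9% to 96.5% with a median of 92.6%.

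The cluster on chromosome 13 in an intron of 9330111N05Rik held 11 members within 48 bases and had a mean of 93.2% at day 4, 91.9% at day 17 and 94.1% at day 29, with no member under 91.8% at day 29. The cluster at chr18:37141123-37141209, in an intron of Pcdha11, held 11 members with means of 96.6% at day 4, 95.5% at day 17 and 94.7% at day 29. Pcdha11 belongs to the protocadherin alpha genes, which encode cell surface adhesion proteins of neurons. The other clusters among the 5 with most members had 9 each, with means at day 29 of 90.4% at chr2:64706750-64706799, 90.9% at chr6:7733630-7733679 and 93.6% at chr8:85048112-85048151. The one on chromosome 6 is a repeated 6-base unit with 1 CG in each copy, and its single members ran from 84.0% to 95.3%.

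The highest clusters by day 29 were at 96.5% on chromosome 5, 95.5% at chr18:4562561-4562611, 95.2% on the X chromosome in Gm14612, 95.0% on chromosome 9 and 94.8% on chromosome 19. At day 17 these 5 clusters were at 93.4%, 94.9%, 93.7%, 92.04% and 95.1%, at a time that was not used to order them. The bases after the cluster on chromosome 19 read as the start of the second word, and the one on chromosome 9 holds the fifth word on the other strand. The lowest were in Cacna1d at 81.9%, Col8a1 at 84.5%, 1700011H14Rik at 84.8%, Hs6st3 at 85.1% and at 86.3% on chromosome 17. Cacna1d encodes a voltage-gated calcium channel subunit and Col8a1 a collagen chain. At day 4 these clusters were at 93.4%, 94.8%, 92.2%, 94.5% and 94.3%. Clusters holding runs of 5 or more CG units (n = 8) had a median of 89.2% at day 29, and the other 30 had 92.9%.

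**Figure D4:**
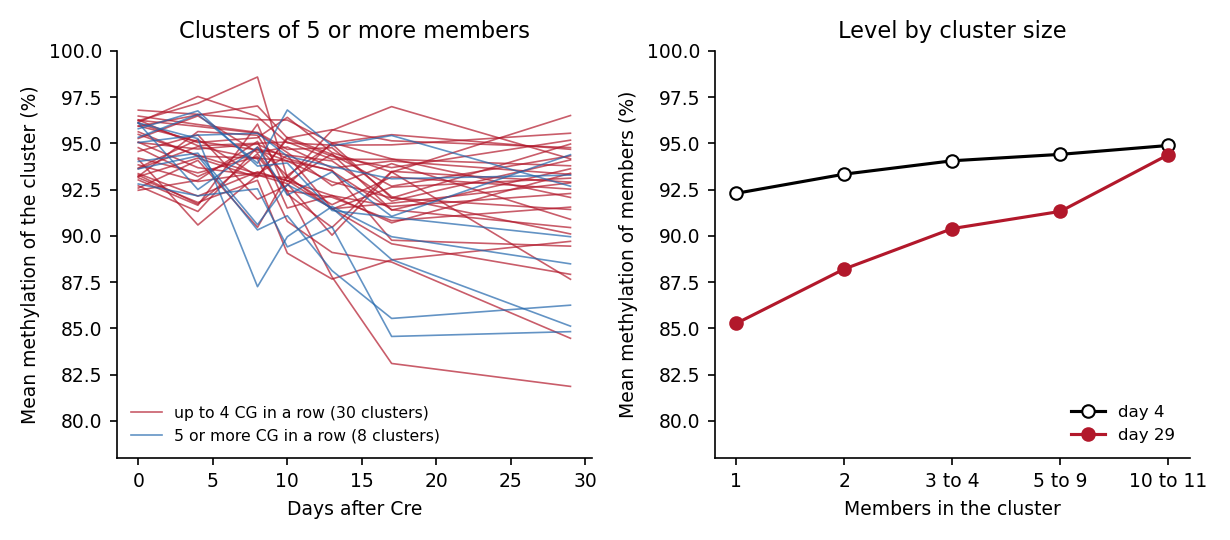
Left, mean methylation (%) of each of the 38 clusters of at least 5 members against days after Cre, with 1 line per cluster and those holding 5 or more CG units in a row in blue. Right, mean methylation of members (%) by cluster size at day 4 (open) and day 29 (filled), where the day 29 means go from 85.3% for single members to 94.4% for clusters of 11.

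Of 17985 protein-coding genes with a capture CpG, 801 held at least 1 member in the gene or 1 kb before its start, and 538 of these held exactly 1. Pcdha11, which in the annotation used covers chr18:37089939-37347311 and with it the start of Pcdha3, was the only gene with at least 20. Its 24 members had a mean of 93.99% at day 4, 93.3% at day 17 and 93.2% at day 29 (range 84.8 to 98.1%), whereas all 1520 capture CpGs of this gene together averaged 19.02% at day 29. All 24 members on that stretch of chromosome 18 lay between bases 37128854 and 37148950. The genes that follow in number, chosen after their values were seen, were Armc8 with 14 members and 90.1% at day 29, Cgnl1 with 12 and 89.2%, Col8a1 with 11 and 87.2%, and Anks1b with 10 and 88.1%. Among genes with at least 5 members the mean day 29 level was lowest in Grin2b, a glutamate receptor subunit, at 82% and highest in Gm10963 at 93.4%.

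The gene lists held few members in number, and their shares lay on both sides of the 0.131% found over all capture CpGs. Members made up 0.554% of the capture CpGs of clustered protocadherin genes, all in Pcdha11, 0.326% in keratin genes, 0.212% in germline genes, 0.110% in olfactory and vomeronasal receptor genes, 0.0548% in Zfp genes and 0.0343% in genes with housekeeping prefixes. Of 28 germline genes, 2 held members: Tex14, needed for germ cell bridges, with 3 members at 88.1% on day 4 and 69.9% on day 29, and Slc25a31, a germ cell mitochondrial carrier, with 1 member at 89.7% and 93.8%. Of 117 olfactory and vomeronasal receptor genes with capture CpGs, Vmn2r59 held 1 member, at 68.7% on day 29. Zinc finger genes of the Zfp series held 15 members in 10 of 339 genes with a mean of 85.2%, and keratin genes held 4 in 3 of 39 with 87.4%. Genes with ribosomal and similar housekeeping prefixes held 7 in 4 of 246 with 83.0%, of which 6 were in Rpl10a-ps2, Rpl12-ps1 and Rpl13-ps3, near copies of ribosomal protein genes, where reads can be hard to place. None of 5422 capture CpGs in 40 Hox genes was a member.

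The single members with at least 150 reads in every column reached from strong loss to none, and were chosen by their day 29 level. The lowest was at chr17:57137884 in a coding exon of Alkbh7, at 90.2% on day 0, 85.3% on day 4 and 56.1% on day 29 (221 reads, 95% Wilson interval 49.5 to 62.5%). At chr10:20683961 in an intron of Ahi1 the levels were 91.5%, 87.2% and 58.9% (872 reads, 55.6 to 62.2%). At chr2:37705289 in an intron of Dennd1a they were 92.9%, 91.8% and 60.2% (364 reads, 55.1 to 65.1%). Each of these was a lone CG. The highest was at chr15:4930395, which lies near the second word in intergenic DNA, at 97.5% on day 0, 96.5% on day 4 and 98.4% on day 29 (450 reads, 96.8 to 99.2%). It was followed by chr18:37141161 in Pcdha11 at 98.1% and by chr15:4930397 at 97.9%. These intervals cover counting error only.

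The amplicon samples gave a replicated view of highly methylated CpGs, with TET absent and present. None of the 405 amplicon CpGs was a member by the capture table, so the amplicon CpGs with a mean of at least 90% at day 0 in both lines were taken in their place. There were 21 (5.19%), in 9 amplicons, with 8 of them in a coding exon of AU022751 on the X chromosome, so they are not independent of each other. Most of the others lie in amplicons labelled as low-methylated regions, among them the stem-cell-specific one in Zbtb20. Of the 21, 9 were also in the capture table, where they were at 83.5 to 89.5% in wild type, under the threshold. In TTKO they were there at 89.1 to 96.3% at day 0 and at 79.9 to 92.6% at day 29. By these capture levels they belong with the sets used for comparison, not with the members.

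In TTKO cells the 21 CpGs stayed above 90% on average after Cre. The mean over them was 96.3% ± 0.512 (SD, n = 3) at day 0, and at day 29 it was 95.3%, 96.4% and 96.9% in the mock samples and 90.3%, 91.6% and 90.8% in the Cre samples. The groups did not overlap. Cre was lower than mock at 12 of 21 CpGs (quasi-binomial model with limma, adjusted over all 384 amplicon CpGs tested), against a background of 66.7%, and the Cre samples all lay under the mock samples at 15 of 21, against 74.5%. The difference had a median of -5.02 points and ran from -10.9 to -1.10, with a median of -9.03 over all amplicon CpGs.

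With TET present the same CpGs stood further below mock after Cre. In wild type the mean over the 21 was 92.2% ± 0.683 (SD, n = 3) at day 0, and at day 29 it was 94.2%, 93.5% and 94.8% in mock samples and 76.1%, 78.7% and 78.2% in Cre samples, again without overlap. The mock mean was not flat, at 96.3% ± 0.317 (SD, n = 3) on day 8. Most of the gap arose late, with Cre means of 94.3% at day 10, 90.9% at day 13 and 86.9% at day 17. Cre was lower at 20 of 21 CpGs against a background of 51.8%, and all Cre samples lay under all mock samples at 21 of 21 against 63.3%. The median difference was -13.3 points (range -46.3 to -4.46), while that of all amplicon CpGs was -6.72. In TTKO, 10 of the 21 were at 90% or more in every Cre sample at day 29, and in wild type 0 were.

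The fall in percentage points was larger in wild type at 20 of 21, but the test of the difference between lines, made on log odds, called 0 of 21 (3 at an unadjusted p under 0.05, smallest adjusted p = 0.0744 from the limma model), against backgrounds of 3.12% lower and 2.86% higher. A loss from near 100% weighs more on the log odds scale than on the scale of points, and the interaction in points was not tested.

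**Figure D5:**
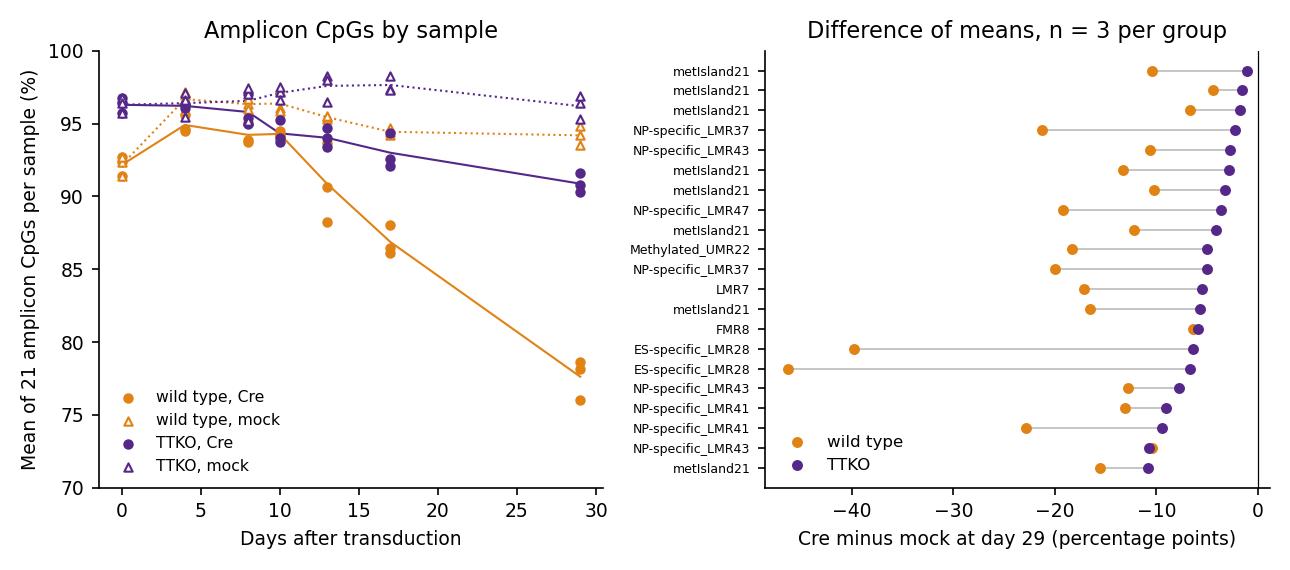
Left, mean methylation (%) over the 21 amplicon CpGs in every sample (over 17 to 20 of them in 5 samples of days 4 and 8) against days after transduction, with lines through the means of 3 replicates and the untransduced samples at day 0 drawn for both treatments, where wild-type Cre samples lie between 76.1% and 78.7% at day 29. Right, difference of Cre and mock means at day 29 (percentage points) for each CpG, named by its amplicon, in wild type (orange) and TTKO (purple).

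Single amplicon CpGs ranged widely, also within 1 exon. The largest TTKO difference was at chrX:5659140 in AU022751, with 94.3%, 97.2% and 96.3% in mock samples and 79.2%, 91.2% and 84.8% in Cre samples (log odds -1.34, SE 0.314, adjusted p = 0.00678 with limma). The smallest was at chrX:5659227 in the same exon, with 91.5%, 96.5% and 96.9% in mock and 93.7%, 95.9% and 92.1% in Cre samples (log odds -0.12, SE 0.343, adjusted p = 0.780 with limma), where the groups overlapped. In wild type these CpGs differed by -15.6 and -10.4 points. The other large TTKO differences were -10.7 points at chr7:138970174 in an intron of Fgfr2, a fibroblast growth factor receptor, and -9.50 at chr7:78616839 in intergenic DNA, and the other small ones were -1.53 at chrX:5659239 and -1.78 at chrX:5659221. The order of the differences rests on single libraries. Without TTKO Cre replicate 1 these 3 largest differences were -7.92 points at chrX:5659140, -11.4 at chr7:138970174 and -6.77 at chr7:78616839, all still past the test. For the 3 smallest, leaving out each library in turn moved them to between -2.86 and -0.12 points at chrX:5659227, -2.97 and -0.38 at chrX:5659239, and -3.22 and -0.88 at chrX:5659221. Without TTKO mock replicate 1 the values were -2.86, -2.97 and -2.56. None of the 3 passed the test in any of these fits.

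The widest gap between the lines, named after its values were seen, was in a coding exon of Zbtb20, a zinc finger transcription factor. At chr16:43609811 the wild-type mock samples were at 89.3%, 93.6% and 92.5% and the Cre samples at 43.3%, 35.4% and 57.9%. The TTKO mock samples were at 96.0%, 97.9% and 98.95% and the Cre samples at 89.9%, 91.1% and 91.6%. Cre and mock did not overlap in either line, and the difference of their log odds between lines was -1.07 (SE 0.526, adjusted p = 0.231 with limma). Its neighbour at chr16:43609834 differed by -39.8 points in wild type and -6.38 in TTKO.

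The columns of the capture table had between 421283985 and 740590811 reads on CpGs, and median depths from 152 to 269 reads, with a lowest depth of 50 set by the authors. Gene starts of Pou5f1, Nanog, Sox2, Zfp42 and Tdgf1, which are active in embryonic stem cells, averaged 1.34 to 2.88% in both lines, and that of Esrrb 53.9% in wild type and 81.2% in TTKO. No CpG in the table showed the deletion itself, since the CpGs of Dnmt3a and Dnmt3b in it had at least 0.756 and 0.857 times their day 0 reads at day 29.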

How the data were processed

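DNA methylation was measured by SureSelect bisulfite capture (24 samples) and amplicon bisulfite sequencing (78 samples), 3 per group. The authors aligned reads to mm9 with Rbowtie in QuasR. For capture, they deposited the methylation level in percent and the coverage per CpG, called with qMeth, with replicates joined and at least 50 reads in every column. For amplicons, the authors deposited coverage counts and methylation fractions per sample, from AmpliconBiSeq, with at least 100 reads per call. Their columns of fitted rates, rate confidence and TET activity hold the authors' own estimates and were not used.

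The members and gene lists were chosen with earlier results of these data known. Methylated reads were recovered as level times coverage, which gave whole reads within rounding (0.05 points) for 100% of levels. Day 29 was compared with day 4 by two-sided Fisher's exact test with Benjamini-Hochberg adjustment. For amplicons, methylated and unmethylated read counts, taken as fraction times coverage, with 0.5 added entered a quasi-binomial model per CpG, its dispersion moderated with limma 3.58.1 in R 4.3.3 and not below 1. Calls were made at an adjusted p of 0.05. The planned amplicon members, those of the capture table, numbered 0, so the listed alternative choice by amplicon day 0 levels is reported. The scripts (Python 3.11.15, numpy 2.4.6, scipy 1.17.1, pandas 2.3.3) were tested on simulated data first. Gene parts, gene starts and sequences came from mm9 and its gene annotation, and all 2177608 positions were CG in that genome.

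Named in the text were the 5 clusters with most members, the 5 highest and 5 lowest at day 29, genes with at least 20 members, the 3 lowest and 3 highest single members with at least 150 reads, and the 3 largest and 3 smallest TTKO amplicon differences. The rule asked for clusters of at least 10 members when ordering by day 29, of which there were 2, so clusters of at least 5 were used. At days 0 and 29, amplicon reads per member CpG and sample ran from 186 to 31130 (median 7342.5). At days between, 5 samples lacked a level at 1 to 4 of the 21 CpGs, through the minimum of 100 reads that the authors set. Reads made by PCR and counted without molecular tags can repeat a molecule, so intervals cover counting error only. Alternatives tried were other member thresholds, depth minimums, cluster rules, error models, added counts, a replicate block and leaving out each replicate.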

Additional observations from a re-analysis of the deposited data

How the results depend on the processing

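Pooled capture columns carry no replicate spread, members have a median of 114 to 196 reads per column, and levels near 100% leave little room above, which limits what the capture comparison can show. The count of members called lower at day 29 than at day 4, 880 as reported, was 529 with at least 10 points required and 426 with over-dispersion. It was 587 of 1617 with 100 reads in all columns, 873 without the X and Y chromosomes and 1047 with day 0 as the start. A threshold of 85% in both lines gave 9840 of 18310 and one of 95% gave 15 of 154. The mean level at day 29, 87.2% as reported, was 88.0% with at least 100 reads in all columns, 80.7% at the 85% threshold, 93.3% at the 95% threshold and 87.9% weighted by coverage. TTKO-only CpGs defined in the same way were at 66.6% and 81.5% at these thresholds and at 75.3% with 100 reads. The 2 clusters of at least 10 members became 38 with at least 5 members, 0 with at least 20, 8 with non-members allowed between, 14 at 85%, 0 at 95% and 0 with 100 reads, and stayed 2 with gaps of 100 or 500 bases. In these the cause is the rule itself, which admits more or fewer CpGs. For the amplicon CpGs, leaving out each replicate in turn gave 10 to 14 lower calls in TTKO, 16 to 20 in wild type and 0 to 1 for the difference between lines, with the single call appearing without TTKO mock replicate 3 or without wild-type Cre replicate 2. With the replicate block the counts were 13, 19 and 0. Samples with the same number did not deviate together (correlations from -0.132 to 0.107 over the 6 pairs), so the number was taken as a label only. Not every sample correlated best with its own number. A minimum of 500 reads gave 11 of 18, 20 and 0, and 0.1 added in place of 0.5 gave 12, 20 and 0. The other choice of amplicon members, by the capture table, gave no CpG and no value.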
